A study of Homo sapiens with 6 samples.

Results

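The genes described here encode the core and assembly proteins of small nucleolar ribonucleoproteins (snoRNPs), 10 of 20037 protein-coding genes annotated on chromosomes 1 to 22, X and Y. They were listed by name: FBL, NOP56, NOP58 and SNU13 for the box C/D particles, DKC1, NHP2, NOP10 and GAR1 for the box H/ACA particles, and NOLC1 and NAF1 as assembly proteins. MYC chromatin immunoprecipitation sequencing (ChIP-seq) had been carried out in MIAPaCa2, an established human pancreatic ductal adenocarcinoma cell line. After 48 hours of serum starvation, shared by every sample, the cells received medium conditioned by cancer-associated fibroblasts (CM) or serum-free DMEM as its control, for 3 hours in either case. Each condition had 2 immunoprecipitated libraries, each with its own peak list, beside 1 input that is not used here. The labels do not state that the libraries are separate cultures, so their spread may be technical, and all values are from 1 cell line.

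Small nucleolar RNAs guide the chemical modification of ribosomal RNA in the nucleolus. Box C/D RNAs direct ribose methylation by the methyltransferase fibrillarin (FBL), held by the scaffold proteins NOP56 and NOP58 and by SNU13, which binds the RNA fold. Box H/ACA RNAs direct pseudouridylation by dyskerin (DKC1) together with NHP2, NOP10 and GAR1, and the same proteins sit on telomerase RNA. NAF1 holds the place of GAR1 during assembly, and NOLC1 (Nopp140) accompanies both classes of particle between Cajal bodies and nucleoli. MYC, which binds DNA with MAX at E-boxes such as CACGTG, is known for its binding at genes of the nucleolus and of ribosome production.

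The RefSeq promoter table (GRCh38.p14, 250 bases before to 50 after an annotated start) held 7 windows for 6 of these genes, FBL, NOP10, GAR1, NOP56, DKC1 and NHP2. Of these, 5 are shown, since they contrast genes with and without CACGTG and with high, low and absent peaks. They lie at chr19:39846330-39846629 (FBL, minus strand), chr15:34343087-34343386 (NOP10, minus strand), chr4:109815512-109815811 (the downstream start of GAR1, plus strand), chr20:2652382-2652681 (NOP56, plus strand) and chrX:154762614-154762913 (DKC1, plus strand). Capitals mark every match to the general E-box CANNTG, of which CACGTG is 1 form; both patterns read the same on either strand.
FBL: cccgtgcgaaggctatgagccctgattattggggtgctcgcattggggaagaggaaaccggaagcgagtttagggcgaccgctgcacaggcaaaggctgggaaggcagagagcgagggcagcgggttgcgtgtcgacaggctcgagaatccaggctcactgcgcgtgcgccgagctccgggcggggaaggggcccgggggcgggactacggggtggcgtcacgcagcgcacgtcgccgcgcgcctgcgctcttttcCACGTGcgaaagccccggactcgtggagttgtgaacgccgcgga
NOP10: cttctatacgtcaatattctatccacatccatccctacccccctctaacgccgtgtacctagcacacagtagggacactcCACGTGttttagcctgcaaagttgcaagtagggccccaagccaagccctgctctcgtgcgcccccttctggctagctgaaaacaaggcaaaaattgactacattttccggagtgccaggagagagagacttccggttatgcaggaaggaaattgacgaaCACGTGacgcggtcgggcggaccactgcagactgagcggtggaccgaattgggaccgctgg
GAR1: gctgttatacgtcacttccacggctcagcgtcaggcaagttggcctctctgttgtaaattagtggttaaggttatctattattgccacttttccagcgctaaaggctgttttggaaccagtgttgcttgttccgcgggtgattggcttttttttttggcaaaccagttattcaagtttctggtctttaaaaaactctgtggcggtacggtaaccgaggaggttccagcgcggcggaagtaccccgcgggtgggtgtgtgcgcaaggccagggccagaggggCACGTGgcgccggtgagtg
NOP56: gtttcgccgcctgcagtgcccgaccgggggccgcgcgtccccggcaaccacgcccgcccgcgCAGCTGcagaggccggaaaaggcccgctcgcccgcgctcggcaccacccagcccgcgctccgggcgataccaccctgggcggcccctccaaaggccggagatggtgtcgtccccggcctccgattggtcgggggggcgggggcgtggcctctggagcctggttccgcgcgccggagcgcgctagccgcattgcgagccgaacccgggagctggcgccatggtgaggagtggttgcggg
DKC1: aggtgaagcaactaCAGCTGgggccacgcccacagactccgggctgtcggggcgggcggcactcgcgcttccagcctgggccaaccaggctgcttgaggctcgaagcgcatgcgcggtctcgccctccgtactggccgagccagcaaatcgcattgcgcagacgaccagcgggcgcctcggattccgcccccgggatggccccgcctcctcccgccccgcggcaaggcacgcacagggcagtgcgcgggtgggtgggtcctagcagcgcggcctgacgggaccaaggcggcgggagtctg

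CACGTG was found in the windows of 3 of the 6 genes, FBL, NOP10 and GAR1. Among all protein-coding genes in the table, 10.9% had it in at least 1 window (8.34% of windows), with 20.0% among genes that had a peak in all 4 libraries and 8.11% among genes with none. The other 3 genes, NOP56, DKC1 and NHP2, held the form CAGCTG, which was present in 22.7% of all genes. Unlike the first form, it was less frequent among genes that had a peak in all 4 libraries (19.9%) than among genes with none (24.6%). FBL thus carried CACGTG without a peak, NOP10 carried it with peaks at percentile 84.1 or lower within their lists, GAR1 carried it with a high peak, and the windows of NOP56 and DKC1, with peaks among the highest of the CM lists, had none. Both NOP10 copies, at bases 81 and 240 of its window, lay inside the peaks of both CM libraries and of DMEM library 2. The GAR1 copy, at base 282 of the window and 31 bases after the start, lay inside the peaks of all 4 libraries. The FBL copy at base 257 lay in none. A match is a description of the letters in these windows and not a binding site.

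There were 15304 peaks in CM library 1 and 12797 in CM library 2, against 4657 in DMEM library 1 and 7652 in DMEM library 2, at an unknown read depth. A gene counted as bound in a library if the list had a peak no more than 1000 bp from either annotated gene end, and as bound in a condition when this held in both libraries. By this rule, CM had 8 of the 10 genes bound and DMEM had 7. The shares over all protein-coding genes were 39.1% in CM and 15.9% in DMEM. The same 7 genes, NOP56, NOP58, DKC1, NHP2, GAR1, NOLC1 and NAF1, were bound in all 4 libraries, as were 15.9% of all genes. NOP10 had a peak in each CM library and, of the DMEM libraries, in library 2 alone, a class with 12.3% of all genes. None of the 10 genes was bound in CM alone, against 11.0% of all genes, and without DMEM library 2 NOP10 was 1 such gene. FBL and SNU13 had no peak at an end in any library, like 54.1% of all genes.

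The height of a peak is given below as the percentile of its score among all peaks of its own list. The score is the authors' value for each peak. For every gene the highest-scoring peak at a gene end is used, except for SNU13. The median percentile over the genes with a peak was 98.65 and 99.25 in the CM libraries, with 8 genes each, and 92.7 and 93.85 in the DMEM libraries, with 7 and 8 genes. Over all bound protein-coding genes it was 69.3 and 65.7 in CM and 59.8 and 60.4 in DMEM, so that the snoRNP genes lay in the upper part of each list.

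Of the box C/D scaffold genes, NOP56 carried 1 of the highest peaks of every list, and NOP58 of every list but DMEM library 1. At NOP56, which lies on chromosome 20 from 2652632 to 2658393, the peak stood at percentiles 99.5 and 99.5 in the CM libraries and 99.5 and 99.0 in the DMEM libraries. All 4 values lay within 1 percentile point. The NOP56 peak covered the annotated start in every library and, in CM library 1, ran from 2650962 to 2654195. It also lay at the end of LOC105372505, a noncoding RNA gene beside NOP56, in all 4 libraries. At NOP58, on chromosome 2 from 202265763 to 202303661, the peak stood at percentiles 99.7 and 99.7 in CM against 92.7 and 98.9 in DMEM. Both CM values were above both DMEM values, and DMEM library 1 was the lowest. The NOP58 peak lay over the low-coordinate end of the gene, with small second peaks further inside the gene in CM library 2, at percentile 4.3, and in DMEM library 2, at percentile 26.2.

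SNU13 and FBL, the other box C/D genes, had no peak at an end in any library. For FBL this allows no statement on MYC, for the reason given below. SNU13, on chromosome 22 from 41673933 to 41690480, had 1 peak in every library, but inside the gene. The promoter table held no start of SNU13, so whether this peak covers a start was not tested. The edge of that peak lay 1307 and 1499 bp from the high-coordinate end in the CM libraries and 1747 and 1460 bp in the DMEM libraries, outside the window of 1000 bp. Its percentiles were 88.0 and 80.8 in CM against 63.5 and 71.6 in DMEM. With all lists limited to the length of the shortest, they were 60.4 and 47.3 in CM and 63.5 and 53.4 in DMEM, and the conditions overlapped. The SNU13 peak measured 1926 and 1482 bp in CM against 796 and 1011 bp in DMEM. The same peak lay at the low-coordinate end of the pseudogene C22orf46P. With a window of 2500 bp or with gene bodies included, SNU13 joined the bound genes, giving 9 in CM, 8 in DMEM and 8 in all 4 libraries. With gene bodies, 43.3% of all genes were bound in CM, 18.1% in DMEM and 18.0% in all 4 libraries. FBL, on chromosome 19 from 39834458 to 39846379, had no peak at an end or in its body, and it was the only 1 of the 10 genes in this class, which held 49.8% of all genes.

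CM had all 4 box H/ACA core genes bound, and DMEM all but NOP10. At DKC1, on chromosome X from 154762864 to 154777689, the peak stood at percentiles 99.6 and 99.6 in CM against 82.6 and 85.2 in DMEM. Both CM values were higher, and the difference of means was 15.7 percentile points. At GAR1, on chromosome 4 from 109815510 to 109824737, the percentiles were 97.8 and 99.0 in CM against 95.2 and 92.8 in DMEM, again without overlap. The GAR1 peak also lay at the end of GAR1-DT, a noncoding RNA gene beside it. At NHP2, on chromosome 5 from 178149463 to 178153885, the percentiles were 95.7 and 93.1 in CM against 89.2 and 94.9 in DMEM. Here the conditions overlapped. At NOP10, the smallest of the H/ACA genes, on chromosome 15 from 34341719 to 34343136, they were 84.1 and 81.6 in CM and 73.1 in DMEM library 2. The NOP10 peak, lowest of the H/ACA peaks in each list that held it, also lay at the end of NUTM1. In DMEM library 1 the nearest peak to NOP10 was 303.1 kb away.

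The assembly proteins marked the top and the lower part of the range. NOLC1, on chromosome 10 from 102152389 to 102163870, had the highest peak of the group in every list, at percentiles 99.9 and 99.9 in CM against 99.7 and 99.8 in DMEM. These are ranks 15 and 9 of the CM lists and 13 and 17 of the DMEM lists. The NOLC1 peak lay over the low-coordinate end of the gene and, in CM library 1 alone, also at the end of its neighbour PPRC1. NAF1, on chromosome 4 from 163103929 to 163166890, stood at percentiles 94.1 and 79.9 in CM against 63.5 and 77.4 in DMEM. Both CM values were higher, but the CM libraries lay further apart from each other than CM library 2 lay from DMEM library 2.

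**Figure D1:**
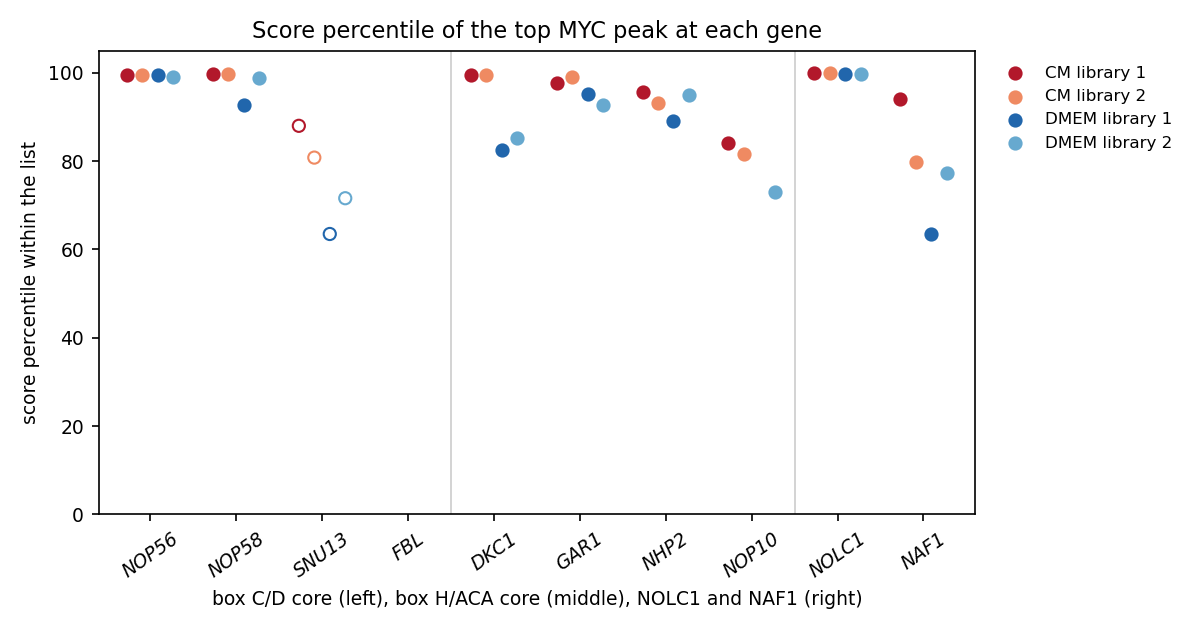
Score percentile within its own list (y axis, 0 to 100) of the highest-scoring MYC peak at each gene (x axis), 1 point per library, CM in reds and DMEM in blues; open points for SNU13 are peaks inside the gene. NOP56 and NOLC1 stand at 99.0 or more in all 4 lists, DKC1 at 99.6 in CM against 82.6 and 85.2 in DMEM, and FBL has no point.

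Of the 7 genes with a peak in all 4 libraries, all but NHP2 had both CM percentiles above both DMEM percentiles, NOP56 by a margin lost in rounding. The lists differ in length, and 67.5% of all genes bound in all 4 libraries had this order, against 0.943% with the opposite order, which none of the 7 had. The order of the genes within a list does not depend on the length of that list. In both CM lists it ran NOLC1, NOP58, DKC1, NOP56, GAR1, NHP2, followed by NAF1 and NOP10 in CM library 1 and NOP10 and NAF1 in CM library 2. In DMEM library 1 it ran NOLC1, NOP56, GAR1, NOP58, NHP2, DKC1, NAF1, and in DMEM library 2 it ran NOLC1, NOP56, NOP58, NHP2, GAR1, DKC1, NAF1, NOP10. DKC1 therefore stood directly behind NOLC1 and NOP58 in both CM lists, and behind 5 of the other genes in both DMEM lists. Its ranks among all peaks were 68 and 53 in CM and 799 and 1125 in DMEM.

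Percentiles were also taken after each list had been limited to its 4657 highest-scoring peaks, the length of the shortest list. DKC1 then stood at 98.5 and 98.9 in CM against 82.6 and 75.7 in DMEM, a difference of means of 19.5 points. Among 2464 genes present in all 4 shortened lists the median difference was 0.985 points, with quartiles of -5.69 and 10.5, and 13.3% of genes had a difference as large as that of DKC1 or larger. NHP2 went the other way, at 85.9 and 81.0 in CM against 89.2 and 91.6 in DMEM. NOP58 stood at 99.1 and 99.2 in CM against 92.7 and 98.2 in DMEM. Of the 7 snoRNP genes in these lists, NOP58 and DKC1 had both CM values above both DMEM values, which 22.2% of all genes had, and NHP2 alone had the opposite order, which 15.8% of all genes had. The other 4 overlapped between conditions. For GAR1 and NAF1, where the full lists had both CM values higher, the values in CM were 92.9 and 97.3 at GAR1 and 80.6 and 44.7 at NAF1. In DMEM they were 95.2 and 88.2 at GAR1 and 63.5 and 62.9 at NAF1. No p-value is given for ranks, since 2 against 2 libraries allow no exact two-sided permutation p under 0.333.

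The highest-scoring peak at an end of each of these genes was wider than the median peak of its own list, which was 691 and 593 bp in CM and 430 and 431.5 bp in DMEM. Among all bound protein-coding genes, 72.3% and 67.6% in the CM libraries and 59.5% and 60.5% in the DMEM libraries had a top peak above that median. NHP2 in DMEM library 1 lay just above it, with 450 bp. The median width over the genes with a peak was 2468.5 and 1771 bp in CM, with 8 genes each, and 1757 and 1098 bp in DMEM, with 7 and 8 genes. NOP56 had the widest peak of the group in CM library 2 and both DMEM libraries, and NOLC1 in CM library 1. The NOP56 peak measured 3234 and 2796 bp in CM against 2767 and 2216 bp in DMEM, and 2216 bp of it were common to all 4 libraries. At NOLC1 the widths were 3304 and 2180 bp in CM against 1757 and 1355 bp in DMEM.

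The step in width between the conditions differed from gene to gene. NHP2 had the largest one, with 1935 and 1545 bp in CM against 450 and 715 bp in DMEM, 3.05 times wider by geometric means. NAF1 measured 2538 and 1753 bp in CM against 792 and 1096 bp in DMEM, 2.26 times wider. Both genes had wider peaks in both CM libraries. At DKC1 the widths were 2399 and 2245 bp in CM against 2420 and 1590 bp in DMEM, a ratio of 1.18, and the widest value was that of DMEM library 1. Among the 7 genes with a peak in all 4 libraries, DKC1 thus had the largest difference of percentiles in lists of equal length beside the smallest ratio of width. NOP58 (2577 and 1789 bp in CM, 1956 and 1088 bp in DMEM) and GAR1 (2304 and 1555 bp in CM, 1663 and 1100 bp in DMEM) also overlapped between conditions. The exact two-sided permutation test over the 6 relabellings of the libraries gave p = 0.333 for NOP56, NHP2, NOLC1 and NAF1, the smallest it can give, 0.667 for NOP58 and GAR1 and 1.0 for DKC1. At this number of libraries none of these differences could pass 0.05.

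The median ratio of width over the 7 genes bound in all 4 libraries was 1.47, beside 2.29 over all 3180 genes bound in all 4 (quartiles 1.72 and 3.11). Peaks were wider in both CM libraries than in both DMEM libraries at 4 of the 7 genes and at 90.0% of all such genes, and narrower at 0 of the 7 and at 0.0314% of all such genes. When each width was divided by the median width of its list, the median ratio was 0.990 over the 7 genes and 1.54 over all genes. By that measure NHP2 and NAF1 were wider in both CM libraries, as were 57.2% of all genes, and 1 of the 7, NOP56, was narrower, as were 3.46% of all genes. NOP56 measured 4.68 and 4.71 list medians in CM against 6.43 and 5.14 in DMEM.

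**Figure D2:**
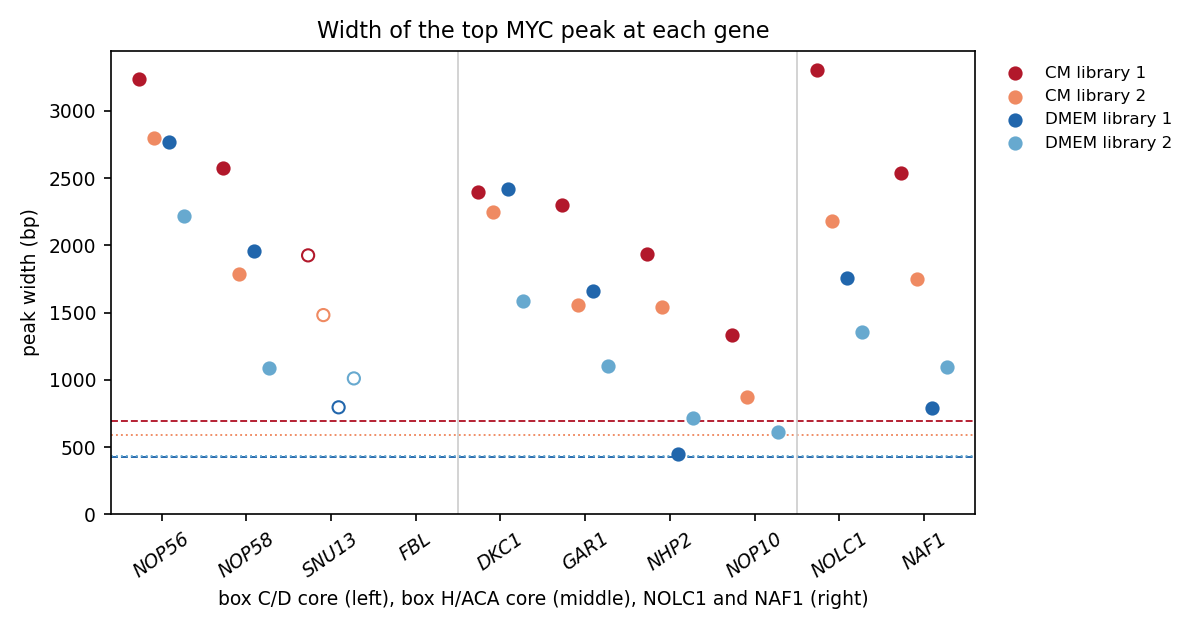
Width in bp (y axis, from 0) of the highest-scoring MYC peak at each gene (x axis), 1 point per library, with open points for the SNU13 peaks inside the gene; dashed and dotted lines are the median widths of all peaks of library 1 and library 2, in the colour of their library. NHP2 and NAF1 have the largest ratios of width between CM and DMEM (3.05 and 2.26), and the DKC1 peak of DMEM library 1 (2420 bp) is as wide as those of CM.

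At NOP58, DKC1, GAR1, NOLC1 and NAF1 the peak reached further into the gene than away from it in all 4 libraries, and at NHP2 in all but CM library 1. At NOLC1 the peak ran 1969 and 1402 bp into the gene in CM and 1100 and 1015 bp in DMEM, and 1334 and 777 bp away from it in CM and 656 and 339 bp in DMEM. At DKC1 it ran 1583 and 1594 bp into the gene in CM and 1770 and 1219 bp in DMEM. NOP56 was an exception, with 1670 and 1543 bp outside the gene in CM and 1550 and 1252 bp in DMEM, against 1563 and 1252 bp inside in CM and 1216 and 963 bp in DMEM. NOP10, which is 1418 bp long and whose peak also lies at NUTM1, had more of its peak outside the gene in all 3 libraries with a peak. For NOP56, DKC1, NHP2, NOP10 and GAR1, the genes with both a peak and an entry in the promoter table, an annotated start lay inside the top peak in every library that had one.

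**Figure D3:**
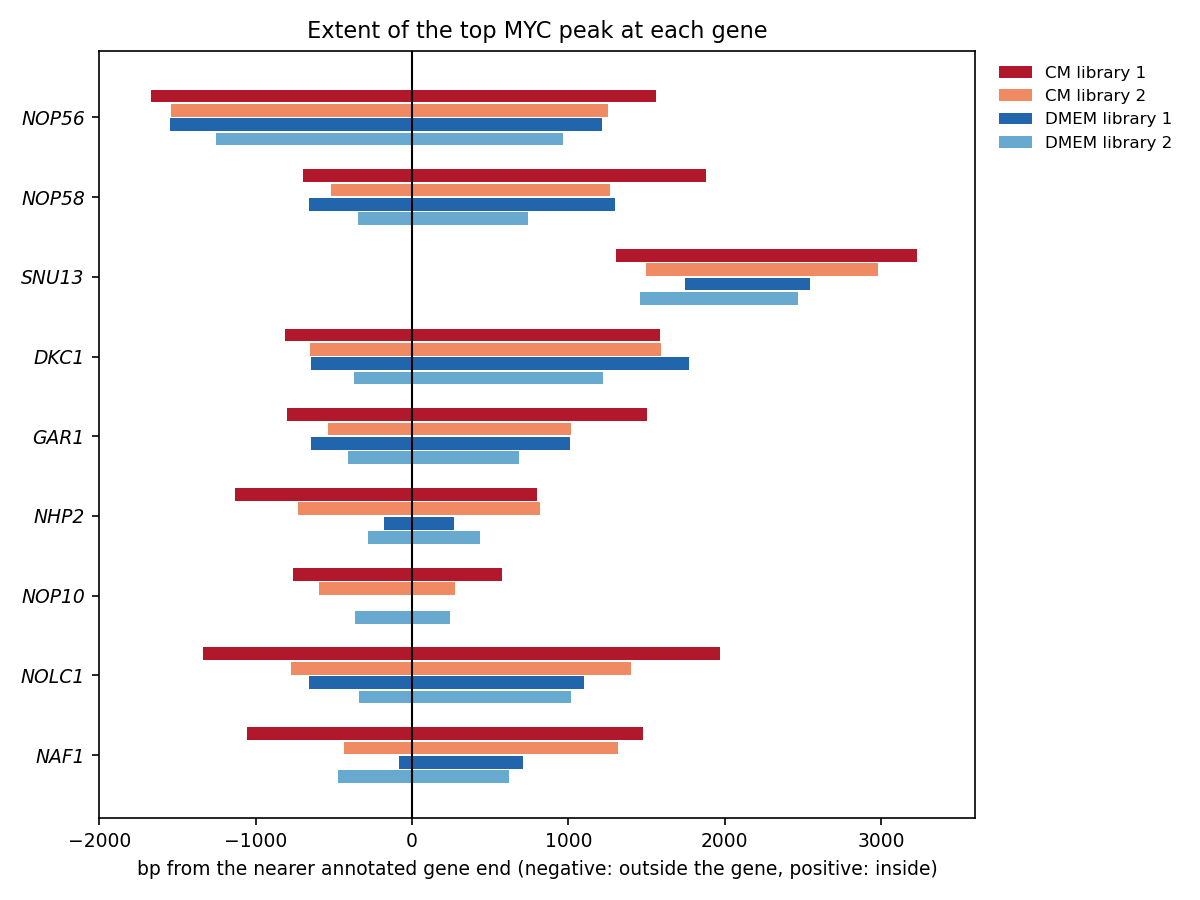
Extent in bp (x axis) of the highest-scoring MYC peak at each gene (rows), measured from the nearer annotated gene end at 0, with positive values inside the gene; bars from top to bottom are CM library 1, CM library 2, DMEM library 1 and DMEM library 2. The SNU13 bars begin 1307 bp or more inside the gene, and the shortest bar is that of NHP2 in DMEM library 1, at 450 bp.

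Of these 10 genes, 3 hold snoRNA genes between their ends, 11 in all, so that NOP56, NOP58 and DKC1 hold genes of the kind of RNA that their proteins bind. NOP56 holds SNORD110, SNORA51, SNORD86, SNORD56 and SNORD57, NOP58 holds SNORD70, SNORD70B, SNORD11B and SNORD11, and DKC1 holds SNORA36A and SNORA56. NOP56 and NOP58 thus hold mainly box C/D RNAs (SNORD) and DKC1 box H/ACA RNAs (SNORA), with SNORA51 in NOP56 as the exception. None of the 11 overlapped a peak in any of the 4 lists, a count given here without the share over all snoRNA genes. The nearest was SNORD110 on chromosome 20, from 2654212 to 2654286, which lay 17 and 328 bp from the NOP56 peak in CM and 364 and 617 bp in DMEM. The snoRNA genes of NOP58 lay at least 8789 bp from a peak and those of DKC1 at least 3596 bp.

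The microRNA gene MIR1292, also inside NOP56 at 2652777 to 2652842, lay under the peak in all 4 lists. Its main products are shown because this is the embedded RNA gene that the peaks covered, with the seed (bases 2 to 8) in capitals; the sequences are from RefSeq, GRCh38.p14, at chr20:2652779-2652803 and chr20:2652819-2652838 on the plus strand.
hsa-miR-1292-5p: uGGGAACGgguuccggcagacgcug
hsa-miR-1292-3p: uCGCGCCCcggcucccguuc

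Among all protein-coding genes, 526 held at least 1 snoRNA gene between their ends. Of these, 303 (57.6%) were bound in CM and 165 (31.4%) in DMEM, beside 38.6% and 15.5% of the 19511 genes without one. This group is defined by position alone and includes long genes, and its difference from other genes was not tested.

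FBL, the gene of the catalytic protein of the box C/D particle, lay far from any peak. The nearest peak to FBL was 294.1 and 301.4 kb away in the CM libraries and 353.2 and 353.1 kb away in the DMEM libraries. The 4 lists together left 650.2 kb of chromosome 19 without a peak, from 39540349 to 40190591, and 12 protein-coding genes lay wholly inside. Besides FBL these include DYRK1B, a protein kinase, PSMC4, a proteasome subunit, and FCGBP. Stretches of this kind were found elsewhere too. Of 1170 peak-free stretches of at least 500 kb, 74 held 12 or more protein-coding genes, 29 had as many genes per megabase as the FBL stretch or more, and the median was 1.89 genes per megabase against 18.4 around FBL. Peak numbers skip at 1 place in each list, between chromosomes 9 and X, and nowhere on chromosome 19. The files hold no read coverage, so a stretch without MYC peaks and a stretch without usable reads cannot be told apart, and no statement on MYC at FBL can be made from them.

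**Figure D4:**
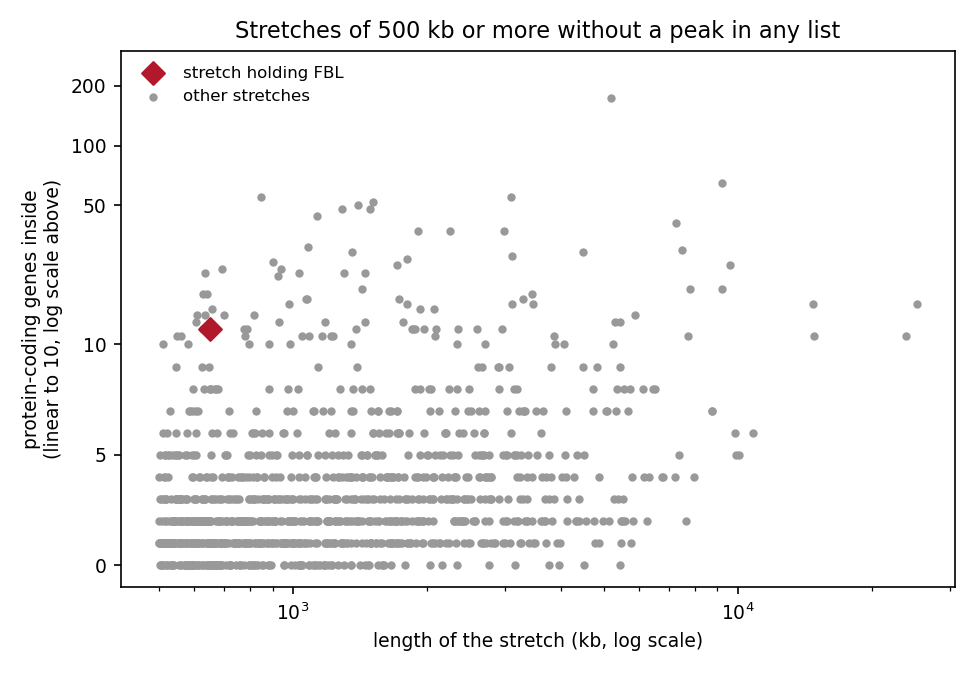
Number of protein-coding genes (y axis, linear to 10 and logarithmic above) against length in kb (logarithmic x axis) of the 1170 stretches of at least 500 kb without a peak in any of the 4 lists, 1 point per stretch. The stretch holding FBL (diamond) has 12 genes in 650.2 kb, and 74 of the stretches have 12 or more.

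Genes that act beside the snoRNP proteins were taken as 4 lists. Of 10 genes of the U3 snoRNP, the box C/D particle of early ribosome assembly, and its partners, 9 were bound in CM and 8 in DMEM. The shares over all protein-coding genes were 39.1% in CM and 15.9% in DMEM. The highest were IMP4 (percentiles 98.3 and 98.2 in CM, 87.6 and 92.0 in DMEM), NOP14 (97.2 and 95.6 in CM, 51.8 and 91.2 in DMEM) and IMP3 (94.8 and 95.0 in CM, 56.5 and 80.3 in DMEM). IMP3 and IMP4 are U3 proteins, and NOP14 is a factor of the small ribosomal subunit. In lists of equal length these 3 and UTP14A kept both CM values above both DMEM values, 4 of the 7 U3 genes in all such lists. Of all genes in all such lists, 22.2% had this order and 15.8% the opposite one. RRP9 and MPHOSPH10 overlapped between conditions. BMS1, a GTPase of the small subunit processome, had the opposite order, with 4.6 and 16.8 in CM against 69.6 and 67.6 in DMEM.

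Of 12 snoRNP assembly factors, 10 were bound in CM and 3 in DMEM, beside 39.1% and 15.9% of all genes. The 3 were HSP90AB1, a chaperone (percentiles 99.0 and 96.9 in CM, 99.0 and 98.3 in DMEM), DNAAF10, a partner of the R2TP co-chaperone (98.8 and 99.5 in CM, 93.2 and 97.3 in DMEM), and RUVBL1, an ATPase of R2TP (86.5 and 82.5 in CM, 39.5 and 59.8 in DMEM). PIH1D1, an R2TP subunit, and SHQ1, the chaperone of dyskerin, were bound in CM alone, 2 of 12 beside the 11.0% of all genes in that class. PIH1D1 stood at percentiles 15.9 and 49.4 and SHQ1 at 57.9 and 50.5 in CM. Another 5, RUVBL2, NUFIP1, ZNHIT6, NOPCHAP1 and HSP90AA1, had a peak in each CM library and in DMEM library 2 but not in DMEM library 1, the shortest list. The count in DMEM was thus 3 with DMEM library 1 and 8 without it. Over all 20037 protein-coding genes, the same counts were 3186 with DMEM library 1 and 5622 without it.

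Among 14 genes of Cajal bodies and snoRNA maturation, CM had 10 bound and DMEM 6, beside 39.1% and 15.9% of all genes. Of these 14, 9 were bound in DMEM without DMEM library 1, beside 5622 of all 20037 protein-coding genes. The highest were the nucleolar proteins NCL (99.9 and 99.9 in CM, 99.6 and 99.9 in DMEM), NPM1 (99.9 and 99.7 in CM, 97.8 and 99.1 in DMEM) and TCOF1 (92.8 and 97.7 in CM, 89.7 and 86.0 in DMEM). PHAX, an RNA export adaptor, was the 1 gene of these 14 bound in CM alone, beside 11.0% of all genes, at percentiles 45.9 and 40.3. TERT, the protein with which dyskerin shares telomerase, had no peak. Of 4 relatives of the snoRNP proteins, SECISBP2, which has the RNA-binding fold of SNU13 and NHP2, was bound in all 4 libraries (99.8 and 99.8 in CM, 98.9 and 99.6 in DMEM), and FBLL1, a paralog of fibrillarin, PRPF31, a splicing protein related to NOP56 and NOP58, and RPL7A, a ribosomal protein related to SNU13 and NHP2, had no peak. Of the 8 genes in all of these lists, FBL included, without a peak at an end or in the body, 6 lay in peak-free stretches of at least 500 kb with 12 or more genes. Of all 9978 protein-coding genes without such a peak, 18.1% lay in stretches of that kind. The 6 listed genes were FBL, ZNHIT3, PARN, TERT, PRPF31 and RPL7A. As at FBL, a lack of MYC peaks and a lack of usable reads cannot be told apart there. No statement on MYC at these genes can be made. The limits of 500 kb and 12 genes were set after the FBL stretch had been seen. That stretch itself holds 12 genes, so FBL was counted by construction, and the TERT stretch holds 12 too. The count of 6 of 8 beside 18.1% is therefore no test.

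**Figure D5:**
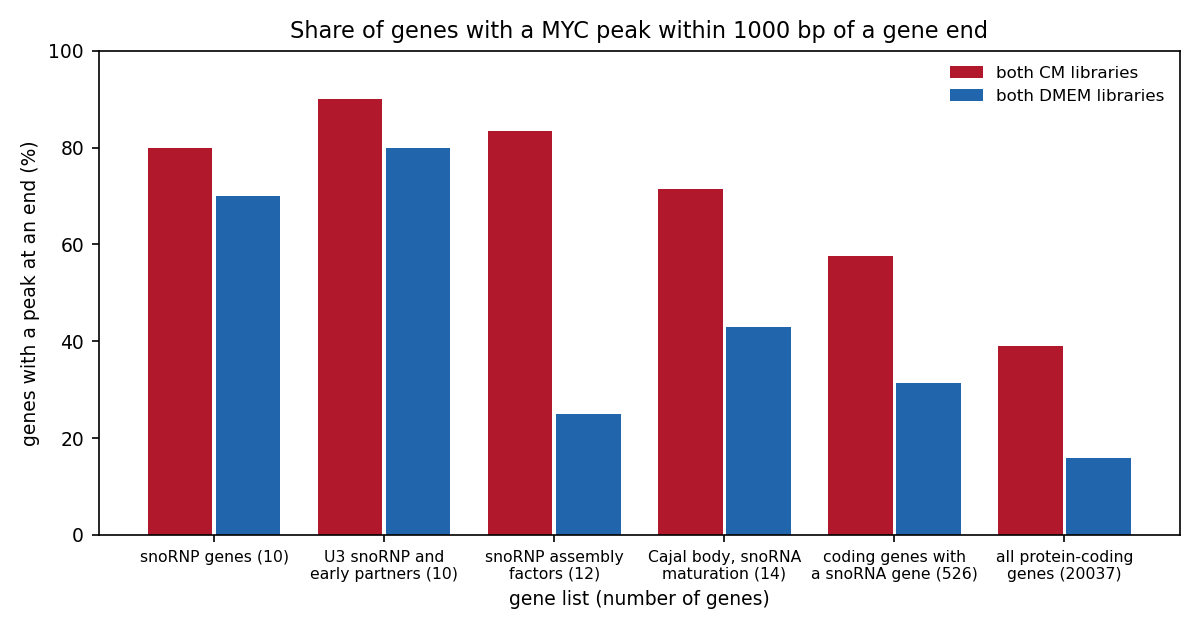
Share in percent (y axis) of genes with a MYC peak within 1000 bp of a gene end in both CM libraries (red, left bar) and both DMEM libraries (blue, right bar), for 5 gene lists and all 20037 protein-coding genes (x axis). The snoRNP genes reach 80.0% and 70.0%, the assembly factors 83.3% and 25%, and all genes 39.1% and 15.9%.

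Genes of like pattern were sought by the Euclidean distance over the 4 score percentiles, among 3180 genes with a peak in all 4 libraries. The nearest to NOLC1, the gene with the highest mean percentile, were SNX8 and EIF3B (distance 0.0484 for both) and ASPRV1 (0.129). SNX8 and EIF3B had equal percentiles in all 4 libraries, and whether they share 1 peak was not tested. The nearest to NAF1, the lowest of the 7, were ZBTB2 (3.85), MRPL20 (4.80) and ANKRD28 (5.32). Near the top of the lists many genes have nearly the same percentiles, so a small distance there is common.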

How the data were processed

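Peak lists of 4 MYC ChIP-seq libraries were analysed. Per the submitters' processing notes, the authors used MACS2 2.1.1.20160309, Bowtie2 2.3.4, Trim Galore 0.4.3, Picard 2.9.0 and SAMtools 1.3.1, and the build was GRCh38. Their settings and control libraries are not given here. Each deposited list gives a chromosome, a start, an end and a whole-number score per peak, of at least 13. Scores were compared only by mid-rank percentile within a list. Read depth is unknown, so each count is a count at the authors' threshold.

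Genes were RefSeq genes of GRCh38.p14, from a table without strand. A gene was bound where a peak touched (at least 1 bp) a window of 1000 bp around either gene end. Peak-free stretches are gaps between the merged peaks of the 4 lists. Widths were compared by exact permutation tests over libraries. Counts and medians stand beside those of all genes in place of a test. The overlap rules were tested on simulated peaks. Analyses used Python 3.11.15, numpy 2.4.6 and pandas 2.3.3.

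The members and lists were chosen with earlier results of these data known. All members are named, and from each other list the CM-only genes and, by mean percentile, the top 3 at most of those with peaks in all 4 libraries; further genes of these lists, and those of the peak-free stretches, were named after their values were seen. Alternatives changed the window, overlap rule, score minimum, list length, gene region, peak choice and libraries, or used the authors' common lists, whose deposited score is a mean over libraries.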

Additional observations from a re-analysis of the deposited data

How the results depend on the processing

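The counts of 8 snoRNP genes bound in CM, 7 in DMEM and 7 in all 4 libraries stayed within 8 to 9, 7 to 8 and 7 to 8 under all 11 alternatives. The count bound in CM alone was 0, and 1 (NOP10) with the authors' common lists and without DMEM library 2, with a range of 0 to 1 when each library was left out. The difference of median percentiles, CM minus DMEM, was 5.67 points, with NOP10 absent from DMEM library 1. Over all bound genes the medians were also higher in CM, 69.3 and 65.7 against 59.8 and 60.4 in DMEM. The difference at the snoRNP genes was 6.55 with a window of 2500 bp and 8.82 with a minimum score of 50. With single libraries left out it was 5.11 to 6.235. The median ratio of width, 1.47, was 1.14 to 1.84 with single libraries left out and turned to 0.990 with widths divided by the median of their list.

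The libraries share replicate numbers. With the replicate block, relabelling only within equal numbers (4 relabellings, smallest exact permutation p 0.5), the ratios of width stay the same by construction (1.21 at NOP56, 1.47 at NOP58, 1.18 at DKC1, 3.05 at NHP2, 1.40 at GAR1, 1.74 at NOLC1 and 2.26 at NAF1). The p was 0.5 for 6 of these genes and 1.0 for DKC1, and no call changed. Deviations of equal-numbered libraries from their condition means correlated at 0.05 over 3180 genes. A shift common to all genes does not enter that correlation, so whether equal-numbered libraries share more than a number was not tested. With the forms CACGCG and CATGTG added, 4 of 6 genes had an E-box in place of 3. The share of all genes in the promoter table rose as well, from 10.9% to 34.6%. Among genes with a peak in all 4 libraries it rose from 20.0% to 48.9%. Unknown depth limits all counts, most of all those of DMEM library 1, the shortest list.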
